A study of Homo sapiens with 36 samples.

Results

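The disome fraction of RBPMS knockout cells was compared with that of unmodified cells, over the Ensembl transcripts that reached 10 TPM in at least 3 of the 6 disome libraries. TPM is an abundance per transcript, scaled for its length, and each library sums to 1000000. Of 223367 transcripts in the table, 7674 (3.44%) met this minimum. The cell line was HUES6, which is an established line of human embryonic stem cells, and it was kept in FTDA medium. The WT group was unmodified HUES6 (3 libraries) and the KO group was HUES6 with the genotype RBPMS KO (3 libraries), and the treatment label of both is control. Before lysis, cells of both genotypes received cycloheximide, which holds ribosomes on their mRNA, at 100 ng/ml for 5 min. Whether the KO cultures came from 1 clone or several and how the knockout was made are not stated in the labels. They also do not say that replicates of a genotype were separate cultures, so p-values measure only the spread between these libraries. Below, a culture stands for the libraries of a genotype that share a replicate number. The labels do not state that such libraries came from 1 culture.

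A polysome gradient sorts mRNAs by the number of ribosomes bound. The 40S fraction carries small subunits, the 80S fraction carries single ribosomes, the disome fraction carries mRNAs with a pair of ribosomes, and polysomes carry more. The disome fraction of such a gradient holds lightly loaded mRNAs, which include mRNAs with short reading frames and mRNAs that initiate rarely. It can also hold ribosomes that have collided. RBPMS is an RNA-binding protein with an RNA recognition motif that binds CAC-containing sequences in RNA, and the comparison asks which transcripts hold a different share of the disome fraction in its absence.

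The deposited table lists transcript IDs without gene names, and the name table used here pairs no Ensembl ID with a gene. The results are therefore given by transcript ID, with at most 2 named in each direction and the leading transcript of 1 library. The level of RBPMS itself, the markers of pluripotent and other cell types, and all gene lists were not analysed here, so the knockout and the cell type rest on the labels. In all 36 libraries of the series, 474 of the 7674 transcripts shared every value with another of them. Where transcripts share sequence, reads can be divided among their IDs, so values of single IDs are uncertain there.

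The minimum of 10 TPM was met in all 6 disome libraries by 1300 transcripts, in 5 by 2298, in 4 by 2090 and in 3 by 1986. Among the last, 284 met it in all WT libraries and in no KO library, and 12 met it in all KO libraries and in no WT library. Transcripts of these sets entered through the group in which they were high, so a difference between the groups was built in. Near the threshold, the third-highest value lay between 10 and 10.5 TPM for 282 transcripts, and between 9.5 and 10 TPM for 286 transcripts just outside.

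One library stood apart. The 10 most abundant transcripts of KO disome replicate 1 held 70.5% of that library. The share was 13.9% and 8.35% in KO replicates 2 and 3, and 10.5%, 9.37% and 13.6% in WT replicates 1, 2 and 3. The KO mean was 30.9% ± 34.4 (SD, n = 3) and the WT mean 11.2% ± 2.18 (SD, n = 3), and the groups overlapped (two-sided exact permutation p = 0.6, adjusted 0.6 over 6 such library measures, with 0.1 the smallest p that 3 against 3 can give). Without KO replicate 1 the KO and WT means differed by -0.0047 percentage points.

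The leading transcript of KO replicate 1, ENST00000638356.1, was at 266448 TPM there, 26.6% of the library. It was at 11093 and 15208 TPM in KO replicates 2 and 3 and at 14440, 3933 and 10063 TPM in the WT libraries. It was therefore abundant in every disome library, and the groups overlapped. Its log2 difference was 2.10 (SE 0.94), and the limma test was not passed (adjusted p = 0.189). The value in KO replicate 1 was 28.1 times the WT mean and 20.3 times the mean of the other KO libraries.

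The rows behind it came in sets of identical values. The next 3 rows were each at 87775 TPM in KO replicate 1, against 2642 and 2284 TPM in the other KO libraries and 2598, 984.2 and 3220 TPM in WT, and their values were identical in all 36 libraries. A single row followed at 37222 TPM, with 875.8 and 876.3 TPM in KO and 903.4, 341.4 and 1272 TPM in WT. A set of 8 identical rows then stood at 27615 TPM each, against 1204 and 680.2 TPM in KO and 208.0, 1340 and 2054 TPM in WT. The cut at 10 transcripts passes through this set of 8. The 13 rows together held 78.8% of KO replicate 1. They held 2.95% and 2.84% of KO replicates 2 and 3, and 2.48%, 1.79% and 3.74% of the WT libraries.

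These 13 rows were not raised to that level in other fractions of the same KO culture. They held 0.523% of its Input (the unfractionated sample), 4.96% of its 40S, 7.83% of its 80S, 4.07% of its Polysome1 and 3.84% of its Polysome2 library. Over all other libraries of the series the highest share was 10.7%, in KO Polysome2 replicate 2. The share of 78.8% was thus seen in 1 library of that culture.

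TPM is a share, so a high share for a few transcripts leaves less for the rest. The median TPM of the 7674 transcripts was 2.30 in KO replicate 1, 17.7 in KO replicate 2 and 26.3 in KO replicate 3. It was 29.7, 28.9 and 19.6 in WT replicates 1, 2 and 3. After each library was rescaled without its 10 most abundant transcripts, the medians were 7.80, 20.5 and 28.7 in KO and 33.2, 31.9 and 22.7 in WT. KO replicate 1 remained the lowest of the 6 after this rescaling. It listed 1037 of the transcripts at 0, against 532 and 33 in the other KO libraries and 75, 40 and 100 in WT. In TPM the depth behind a value is unknown, so a listed 0 is an estimate and not a count.

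**Figure D1:**
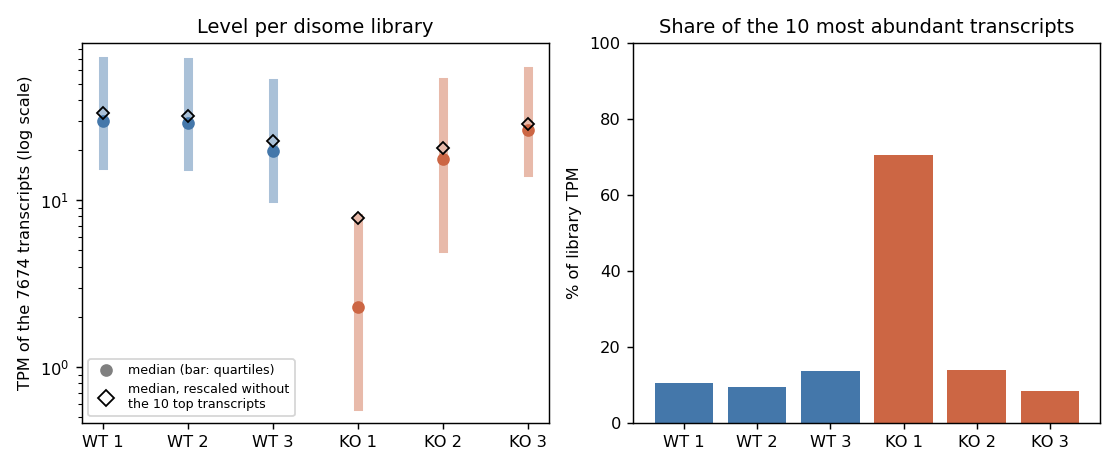
Left, TPM of the 7674 transcripts in each disome library on a log axis, with the median as a point, the quartiles as a bar and, as a diamond, the median after rescaling without the 10 most abundant transcripts. Right, the percentage of library TPM in the 10 most abundant transcripts, where KO 1 stands at 70.5% and the other 5 libraries lie between 8.35% and 13.9%.

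The libraries did not group by genotype. Pearson's r of log2(TPM + 1), taken across the 7674 transcripts and so over points that are not independent, was 0.83 between KO replicates 1 and 2, but 0.50 and 0.49 between these and KO replicate 3. KO replicate 3 was closer to the WT libraries, at 0.81, 0.86 and 0.70 with WT replicates 1, 2 and 3. Among the WT libraries r was 0.85 between replicates 1 and 2, 0.66 between 1 and 3 and 0.76 between 2 and 3. WT replicate 3 lay between both sets, at 0.62 and 0.65 with KO replicates 1 and 2. These values describe the libraries and carry no test.

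**Figure D2:**
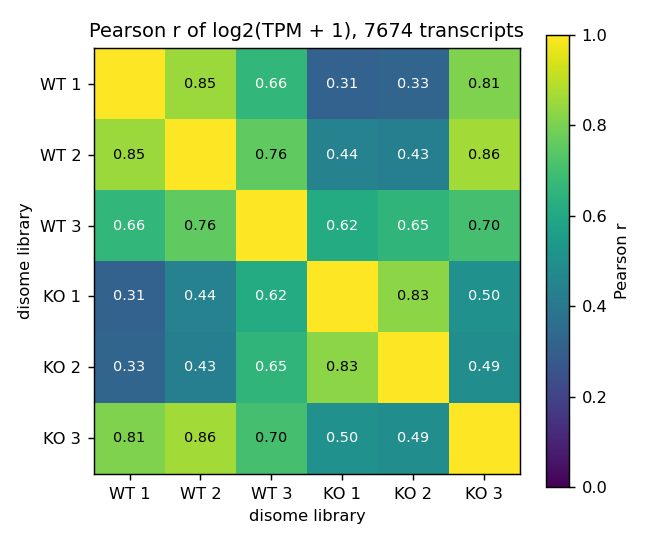
Pearson's r of log2(TPM + 1) between each pair of the 6 disome libraries, over 7674 transcripts. KO 1 and KO 2 correlate at 0.83 with each other and at 0.31 to 0.65 with the WT libraries, while KO 3 correlates at 0.70 to 0.86 with the WT libraries.

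Each KO disome library resembled the 80S and Polysome1 libraries of its own culture. KO replicate 1 had an r of 0.86 with its own 80S library and 0.86 with its own Polysome1 library, but 0.51 with the mean of the WT disome libraries. KO replicate 2 had 0.95 with its own 80S and 0.97 with its own Polysome1 library, and 0.52 with the WT disome mean. KO replicate 3 had 0.96 and 0.93 with its own 80S and Polysome1 libraries and 0.86 with the WT disome mean. With its own Input, 40S and Polysome2 libraries KO replicate 3 had 0.78, 0.78 and 0.81, below its r with the WT disome mean. In KO replicate 1 these were 0.79, 0.79 and 0.85, and in KO replicate 2 they were 0.83, 0.90 and 0.94. In both, the r with these own libraries was above that with the WT disome mean. KO replicate 1 was about as near to its own Polysome2 library as to its own 80S and Polysome1 libraries. All 3 KO libraries were thus nearer to their own 80S and Polysome1 libraries than to the WT disome mean. WT disome libraries, too, were nearer to another WT fraction than to the mean of the other WT disome libraries, at 0.90 against 0.80, 0.91 against 0.88 and 0.85 against 0.74 for replicates 1, 2 and 3. For each library the fraction with the highest r was taken. Its mean is over 3 libraries, that of the same replicate number included, and the disome mean is over the 2 others. These unlike means favour the other fraction.

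The position of each KO library against the WT range differed in the same way. In KO replicate 1, 6741 of the 7674 transcripts (87.8%) lay below all WT values and 230 (3.0%) above them. In KO replicate 2, 3937 (51.3%) lay below and 1928 (25.1%) above. In KO replicate 3 the directions were nearly equal, with 1923 (25.1%) below and 1949 (25.4%) above. The median log2 difference from the WT mean was -3.07, -0.69 and 0.07 in KO replicates 1, 2 and 3. A WT library could also lie apart. WT replicate 3, set against the range of the other 2 WT libraries, which is narrower than that of 3, had 61.8% below, 21.7% above and a median of -0.53.

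KO and WT were then compared with limma on log2(TPM + 1), with 1 mean for each of the 12 groups of the series fitted to all 36 libraries. Of the 7674 transcripts, 343 were called lower in KO disomes and 0 were called higher (Benjamini-Hochberg adjusted p under 0.05 over all 51052 transcripts tested). The background over all tested transcripts was 2.74% lower and 0.0411% higher, and the 343 make 4.47%. Of the 343, 106 had met the minimum in all WT libraries and no KO library, so their direction was built in. Part of the 4.47% therefore rests on the choice of transcripts. At an unadjusted p under 0.05, 2447 were lower and 51 higher, 32.6% of the 7674 against 21.6% of all tested. The median log2 difference was -1.27 over the 7674 (median SE 0.83), against -0.45 over all tested, and 83.2% of the 7674 had a difference below 0. These 2 medians depend on the amount added to TPM, since 1 TPM shrinks the differences of low transcripts. With 0.1 added they were -1.51 and -1.10, and with 10 added -0.63 and -0.076. In bulk RNA, fewer cells that make a transcript and less of it per cell cannot be told apart. A lower TPM is a lower share of the fraction, not by itself a smaller amount.

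The count depended on KO replicate 1 and on whether the spread was estimated with the other fractions. Without KO replicate 1, 8 were called lower and 0 higher, all 8 among the 343. The 8 make 0.104% of the 7674, against 0.102% lower over all tested, so the count was at the background. The median log2 difference of the 7674 was then -0.37. With the 6 disome libraries alone in the fit, limma called 0 transcripts, with 802 lower and 19 higher at an unadjusted p under 0.05 (8.03% of all tested in either direction). The smallest adjusted p of any of the 7674 in that fit, which has 4 residual degrees of freedom, was 0.54, and its count of 0 does not show that the groups were alike. Leaving out WT replicate 1 left 23 lower calls (0.30% of the 7674, background 0.335%), and leaving out WT replicate 2 left 35 (0.46%, background 0.476%). Leaving out WT replicate 3 gave 467 (6.09%, background 7.43%). These shares too were near or below the background. Without KO replicate 2 the count was 132 lower (1.72%, background 0.705%), and without KO replicate 3 it was 2296 lower and 14 higher (29.9% and 0.18%, background 13.5% and 0.235%). With KO replicates 1 and 2 both left out, which leaves KO replicate 3 as a single library whose spread is assumed to be that of the other groups, 2 were lower and 0 higher (0.026% lower, background 0.0176%).

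The scaling moved both the number and the direction of the calls. With quantile-normalized values 114 of the 7674 were lower and 22 higher (1.49% and 0.287%), where the background was 0.355% lower and 0.159% higher. Median-of-ratios scaling gave 25 lower and 6 higher (0.326% and 0.0782%, background 0.131% and 0.0235%). Rescaling without the 10 most abundant transcripts gave 236 lower and 6 higher (3.08% and 0.0782%, background 1.7% and 0.0764%). The lower share of all calls was thus 100% in TPM and 83.8%, 80.6% and 97.5% in the 3 scalings. The median log2 difference of the 7674 was -0.45 and -0.40 in the first pair and -0.91 in the last. Over all tested transcripts the median was 0.025, -0.13 and -0.37 in these scalings, against -0.45 in TPM. Of the 343 transcripts lower in TPM, 113 were also called with quantile-normalized values, 25 with median-of-ratios factors and 236 with rescaled libraries.

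**Figure D3:**
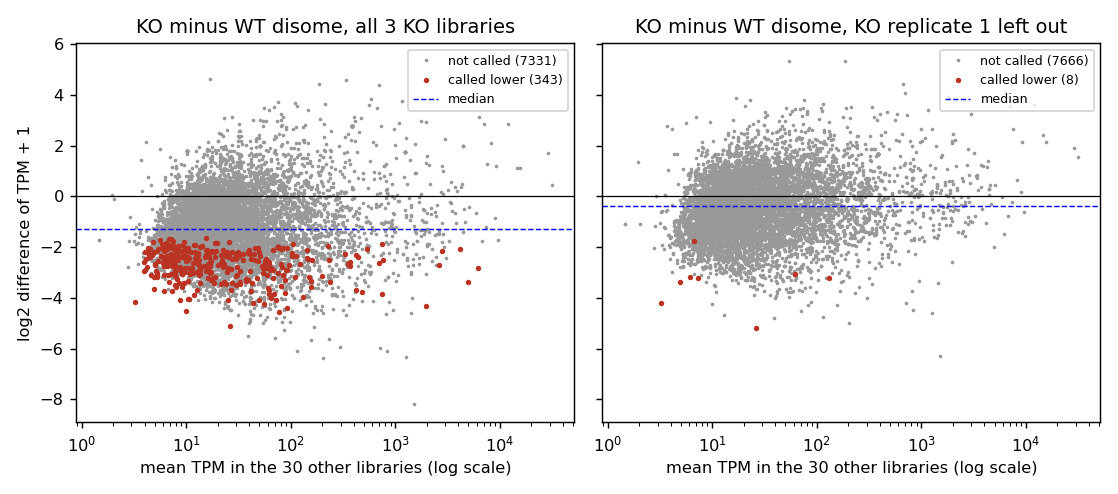
Log2 difference of TPM + 1 between KO and WT disomes for 7674 transcripts against their mean TPM in the 30 libraries of the other fractions (log axis), with all libraries (left) and with KO replicate 1 left out (right). Red points passed the limma test, 343 on the left and 8 on the right, and the dashed median lies at -1.27 and -0.37.

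**Figure D4:**
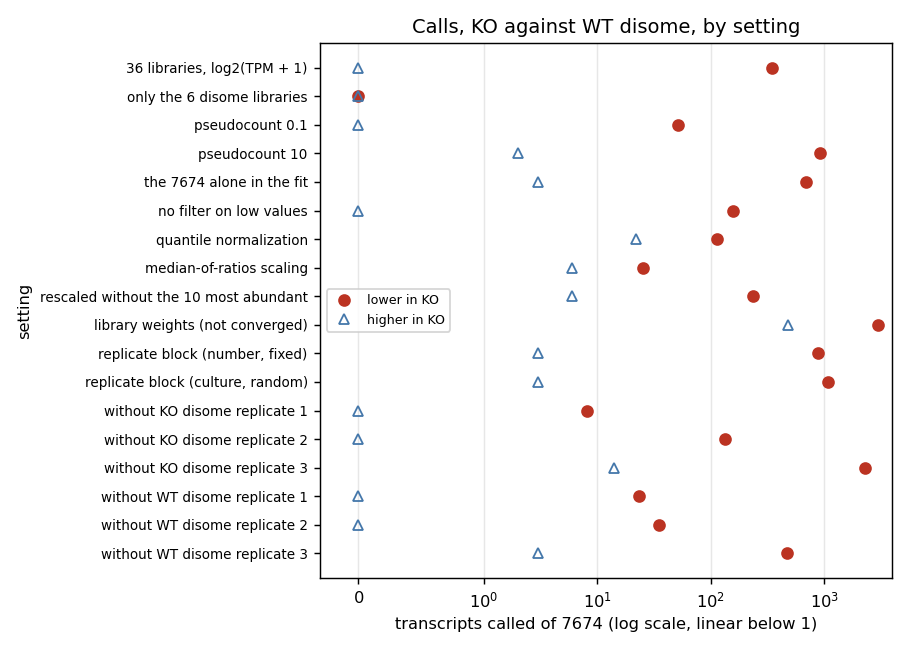
Number of the 7674 transcripts called lower (filled circles) or higher (open triangles) in KO disomes under each processing setting, on a log axis that is linear below 1. The lower count was 343 with 36 libraries, 0 with the disome libraries alone and 8 without KO replicate 1.

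The 343 lower transcripts were described by library. Their median TPM was 49.1, 44.4 and 36.6 in WT replicates 1, 2 and 3 and 1.12, 7.77 and 16.3 in KO replicates 1, 2 and 3. KO replicate 3, which resembled WT over all transcripts, was below the WT range for 339 of the 343. Because the calls used these libraries, this is a description of what was called. The log2 difference ranged from -5.11 to -1.64, with a median of -2.58 (median SE 0.62). The groups did not overlap for 338 of them, and 106 had entered the comparison through WT alone.

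In the libraries of other fractions, which the comparison did not use for its means, the 343 were described next, with no test, since WT disome values had chosen them. Their median relative to that of all 7674 transcripts was 0.97 to 1.03 in the 3 WT Input libraries, 1.42 to 3.46 in WT 40S, 1.38 to 1.75 in WT 80S, 0.92 to 1.24 in WT Polysome1 and 0.32 to 0.49 in WT Polysome2. Their median was thus near that of all 7674 in WT Input and below it in WT Polysome2. In WT Polysome2 their medians were 10.6, 8.55 and 13.4 TPM, against 28.5, 27.1 and 27.4 TPM over the 7674. In WT 80S they were 25.2, 24.4 and 33.0 TPM, against 18.2, 17.7 and 18.9 TPM. Both directions were seen in every WT replicate. In the KO libraries the relative median was 0.67 to 0.80 in Input, 0.84 to 1.08 in 40S, 0.56 to 0.69 in 80S, 0.47 to 0.60 in Polysome1 and 0.35 to 0.61 in Polysome2.

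Calls occurred at every abundance. The 7674 transcripts were put in 5 bins by their mean TPM over the 30 libraries of the other fractions. The lowest bin, up to 11.3 TPM, had 135 lower calls of 1535 (8.79%), and the next 3 bins had 55, 36 and 52 (3.58%, 2.35% and 3.39%). The highest bin, above 67.0 TPM, had 65 (4.23%). The background over all tested transcripts was 2.74% lower, and the shares of the middle 3 bins lay near it. A background for each bin was not computed. The median log2 difference was -1.57 in the lowest bin and -1.13 to -1.21 in the other 4. Transcripts of the lowest bin also had to reach 10 TPM in 3 disome libraries. Their medians were 15.2, 15.1 and 11.3 TPM in WT disomes and 0.58, 5.69 and 12.1 TPM in KO disomes. How far the minimum shaped the calls of this bin was not tested. KO replicate 1 listed 25.5% of the lowest bin at 0 and 5.15% of the highest.

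The most abundant transcripts of the WT disome fraction were chosen by their WT values, which makes a lower KO value more likely. The first fell. It was at 29069, 23134 and 16133 TPM in WT and at 313.0, 5158 and 6013 TPM in KO, without overlap. Its log2 difference was -3.37 (SE 0.66, limma adjusted p = 0.00956). Without KO replicate 1 it was -1.99 and did not pass (limma adjusted p = 0.0765). The third most abundant was at 11837, 12535 and 10436 TPM in WT and at 342.4, 3125 and 5019 TPM in KO, and differed by -2.72 log2 units (limma, SE 0.60, adjusted p = 0.0188). That call also ended without KO replicate 1, at -1.55 (limma adjusted p = 0.176). The second most abundant, at 11193, 14874 and 22460 TPM in WT and 1004, 9075 and 11230 TPM in KO, overlapped between the groups and did not pass (limma adjusted p = 0.085).

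The transcript with the widest gap between the groups was ENST00000332374.4. It was at 140.0, 134.2 and 148.6 TPM in WT disomes and at 3.55, 2.13 and 3.86 TPM in KO disomes. All KO values, KO replicate 3 included, were far below all WT values. It met the minimum of 10 TPM in the WT libraries alone, so a lower KO level was built into its choice and its p-values are a description. It fell by 5.11 log2 units (limma, SE 0.82, adjusted p = 0.00166). Without KO replicate 1 the difference was -5.19 (limma adjusted p = 0.0105). With the disome libraries alone in the fit, which leaves the difference of the means as it is, the SE was 0.56, the unadjusted p 7.7e-05 and the adjusted p 0.54. The call also ended under median-of-ratios scaling, at -4.04 (SE 0.97, limma adjusted p = 0.0668). It ended, too, with KO replicates 1 and 2 both left out, where a single KO library remains and the difference was -4.87.

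The difference in ENST00000332374.4 was not limited to disomes. In WT its mean was 62.8 ± 15.3 TPM in 80S, 141 ± 7.24 TPM in disome, 95.4 ± 20.3 TPM in Polysome1 and 19.3 ± 2.48 TPM in Polysome2 (SD, n = 3 each). In WT Input it was 31.2 ± 4.42 TPM (SD, n = 3). In KO Input it was at 15.9, 4.19 and 1.72 TPM, and in KO Polysome1 at 16.5, 1.27 and 2.07 TPM, below all WT values of those fractions. KO culture 1 was the highest of the KO cultures in each of the other fractions, at 10.1 to 17.4 TPM, and was at 3.55 TPM in its disome library. The KO difference was -4.26 in Polysome1 (SE 0.82, limma adjusted p = 0.0062) and -3.34 in 80S (SE 0.82, limma adjusted p = 0.0531). The disome difference exceeded that in 80S by -1.77 (SE 1.16) and that in Polysome1 by -0.85 (SE 1.16), and neither passed the test (limma adjusted p = 1 for both).

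ENST00000346199.2 had the next widest gap. It was at 20.7, 17.4 and 19.6 TPM in WT disomes and at 0.19, 0.12 and 0.094 TPM in KO disomes. The groups were far apart, and the KO values were close to 0. It, too, met the minimum through WT alone, and the same limit holds for its p-values. It fell by 4.15 log2 units (limma, SE 0.39, adjusted p = 6.04e-07), and the difference was -4.19 without KO replicate 1 (limma adjusted p = 7.36e-06). With the disome libraries alone the SE was 0.48 and the unadjusted p 0.000101, and the adjusted p was 0.54. With KO replicates 1 and 2 both left out, where a single KO library remains, the difference was -4.20.

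ENST00000346199.2 was low in every KO fraction. Its highest value in any KO library was 1.31 TPM, in Polysome2 replicate 1, and in KO Input it was at 0, 0.036 and 0 TPM. WT Input had a mean of 4.60 ± 2.86 TPM, WT 80S 6.18 ± 3.33, WT disome 19.2 ± 1.67, WT Polysome1 15.3 ± 4.22 and WT Polysome2 1.86 ± 0.21 TPM (SD, n = 3 each). Its WT level was thus highest in the disome and Polysome1 fractions, whose replicates overlapped, and low in Polysome2. The KO difference was -3.73 in Polysome1 (SE 0.39, limma adjusted p = 2.7e-06) and -2.54 in 80S (SE 0.39, limma adjusted p = 0.00151). The disome difference was larger than that in 80S by -1.61 (SE 0.55), and this interaction was not called (limma adjusted p = 1).

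**Figure D5:**
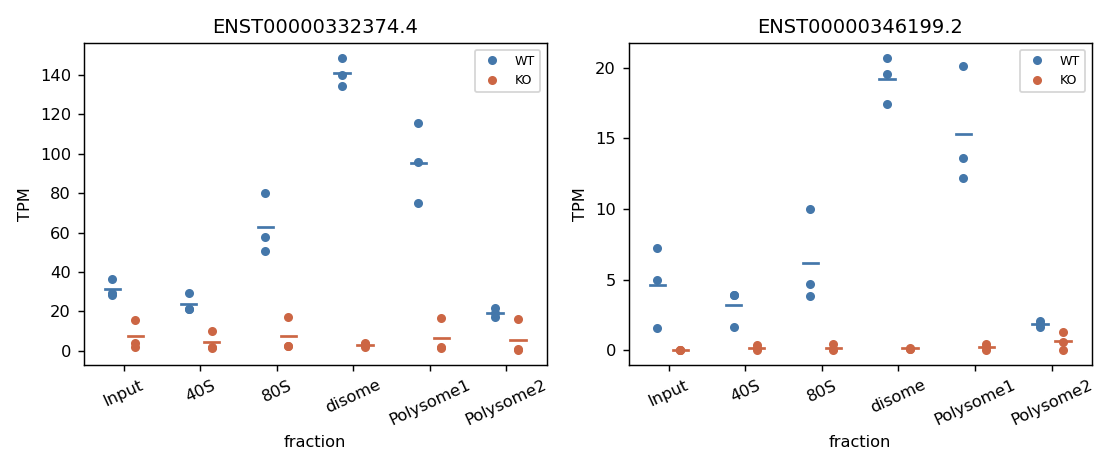
TPM of ENST00000332374.4 (left) and ENST00000346199.2 (right) in all 36 libraries by fraction, with WT in blue, KO in orange, 1 point per library and a line at the mean of 3. The WT mean is highest in the disome fraction, where the points lie at 134.2 to 148.6 TPM and 17.4 to 20.7 TPM. On the right, the WT disome and Polysome1 points overlap. The KO disome points lie at or below 3.86 and 0.19 TPM.

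These were part of the 8 transcripts that stayed below the threshold of 0.05 without KO replicate 1, a set chosen on its values. Of the 8, 6 had met the minimum of 10 TPM through WT alone, so their direction was built in, and 2 had met it in a KO library as well. The other 6 had WT disome means of 17.8 to 673 TPM and KO means of 0.55 to 59.7 TPM. Their log2 differences ranged from -3.96 to -2.59, and from -3.39 to -1.77 without KO replicate 1. The most abundant of them, 1 of the 2 that had met it in KO as well, was at 720.0, 571.2 and 727.2 TPM in WT and at 13.98, 41.6 and 123.6 TPM in KO. The other of these 2 was at 265.6, 258.1 and 339.4 TPM in WT and at 5.49, 22.2 and 51.0 TPM in KO. In both, the order of the KO libraries was that seen over all transcripts, with KO replicate 1 lowest and KO replicate 3 nearest to WT. Of the 8, 7 were also called lower in each of the 3 scalings, with ENST00000332374.4 as the exception.

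Overlap was also counted without a model. The values of the groups did not overlap for 1495 of the 7674 transcripts on the lower side (19.5%) and for 74 on the higher side (0.96%). Over all tested transcripts these shares were 13.0% and 1.14%. The 284 transcripts that met the minimum in all WT libraries and no KO library cannot overlap, nor can the 12 of the opposite kind. They are part of the 1495 and the 74 by construction, and the gap counts below hold such transcripts too. After quantile normalization of the 6 libraries, 1482 were lower without overlap (19.3%) and 676 higher (8.81%), and the background was 9.16% and 7.83%. The share of the higher side was thus near its background on both scales. On both scales together 1226 were lower and 63 higher (background 7.07% and 0.919%). A gap of at least 1 log2 unit was found for 152 transcripts on the lower side and 5 on the higher side (background 0.958% and 0.0509%). A gap of at least 2 units was found for 12 and 0 (background 0.0744% and 0.00588%).

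None of the 7674 passed the test upward. The pair with the widest gaps on that side was chosen after its values were seen. Both met the minimum through KO alone, so their direction was built in. ENST00000363286.1 was at 1.33, 0 and 3.69 TPM in WT disomes and at 153.7, 68.0 and 14.6 TPM in KO disomes. Its log2 difference was 4.63 (SE 1.38, limma adjusted p = 0.0608). It was highest in the library that stood apart, and WT 40S libraries had it at 2.68, 21.5 and 93.6 TPM, while WT Input, 80S and Polysome1 listed it at 0. ENST00000593483.1 was at 7.16, 8.75 and 4.86 TPM in WT disomes and at 22.4, 49.1 and 23.9 TPM in KO disomes. Here KO replicate 2 and not KO replicate 1 was highest. Its log2 difference was 1.99 (SE 0.66, limma adjusted p = 0.0862). In Polysome1 its KO values were 164, 55.6 and 22.5 TPM against 8.42, 10.6 and 7.11 TPM in WT, where it rose by 2.65 (SE 0.66, limma adjusted p = 0.025). The Polysome1 libraries share replicate numbers with the disome libraries that chose this transcript, so that p-value is a description.

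The KO difference in disomes was set against that in the neighbouring fractions of the same cultures. Among the 7674 transcripts, 10 were called higher and 6 lower in 80S (background 0.0627% and 0.537%), and 135 higher and 104 lower in Polysome1 (background 1.58% and 3.84%). As shares of the 7674, the lower calls were below the background in both fractions. The higher calls were above it in 80S and near it in Polysome1. These counts depended on the treatment of cultures. With culture as a random block, 30 were higher and 125 lower in 80S (background 0.196% and 1.16%). In Polysome1, 303 were then higher and 928 lower (background 3.08% and 8.29%). The calls were then mostly lower, and as shares the counts in both directions were above their backgrounds. The median log2 difference of the 7674 was -0.47 in 80S, -1.27 in disome and -0.66 in Polysome1. The 343 lower transcripts had medians of -1.47 in 80S and -1.48 in Polysome1, and 4 and 34 of them were called lower there. The test of the difference itself called 0 of the 7674 between disome and 80S and 0 between disome and Polysome1 (limma, backgrounds of 0.00196% and 0.0%). At an unadjusted p under 0.05 there were 207 more negative and 2 more positive in disome than in 80S (3.04% of all tested), and 256 and 2 against Polysome1 (4.6% of all tested). The KO difference in disomes was therefore not shown to differ from that in 80S or Polysome1 for any of these transcripts.

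The median of these fraction differences moved with KO replicate 1. With all libraries the disome difference was below that in 80S by a median of -0.76 and below that in Polysome1 by -0.63 (median SE 1.17 each). Without KO disome replicate 1 the medians were 0.10 and 0.27. Quantile normalization gave -0.02 and -0.0015, and -0.017 and 0.0011 over all tested transcripts. It gives every library the same distribution of values, so small medians were largely built in.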

How the data were processed

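The authors deposited 1 table of TPM values for 36 libraries (stranded poly(A) mRNA libraries read as paired ends of 75 nt, per the labels' protocols). It holds 223367 Ensembl transcript rows and 92 rows of ERCC spike-in RNA. Per the submitters' processing notes, kallisto, sleuth and the build hg19 were used; versions are not given in the sources used here. TPM keeps no depth, so no counting intervals are given. Of 59792 genes in the name table, 0 had an Ensembl ID. The 25 gene lists and the sum over transcripts of a gene were therefore not analysed here.

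Transcripts at 1 TPM or more in 3 or more libraries were tested (51052) with limma 3.58.1 in R 4.3.3 on log2(TPM + 1), a scale that understates changes of low transcripts, with 12 group means, a variance trend, 24 residual degrees of freedom and Benjamini-Hochberg adjustment at 0.05. Libraries of 1 culture were taken as independent. The fit was tested on simulated data. Other pseudocounts, filters, scalings, library weights, replicate blocks and left-out libraries were tried as alternatives. Library measures were compared by exact permutation with Python 3.11.15, numpy 2.4.6, pandas 2.3.3 and scipy 1.17.1, and plots were made with matplotlib 3.10.9.

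Named transcripts were the 2 called in each direction with the widest gap between the nearest KO and WT values, and the leading transcript of KO replicate 1; since none was called higher, 2 uncalled ones were added. The transcripts compared and the lists were chosen with earlier results of these data known.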

Additional observations from a re-analysis of the deposited data

Results flagged for a closer look

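The spike-in rows, which the comparison does not use, gave a signal above that of the control libraries. The ERCC total was 43.3, 290 and 65.9 TPM in KO disome replicates 1, 2 and 3 and 20.9, 14.8 and 19.7 TPM in WT, without overlap. The exact permutation p on the log2 scale was 0.1 (two-sided, adjusted 0.45 over 6 library measures), the smallest that 3 against 3 can give. The KO libraries had 22, 35 and 22 spike-ins above 0, and the WT libraries 18, 15 and 16. Neither source nor amount of the spike-in is given in the sources used here.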

How the results depend on the processing

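The number of the 7674 transcripts called lower in KO disomes, 343 with TPM and 36 libraries, was 0 with only the disome libraries, 51 with a pseudocount of 0.1, 925 with a pseudocount of 10, 695 with the 7674 alone in the fit, 156 with no filter on low values, 114 with quantile-normalized values, 25 with median-of-ratios factors, 236 with rescaled libraries and 2954 with library weights, whose estimation stopped before it converged. Leaving out each library in turn gave 8 to 2296. Among all 51052 tested, the lower calls were 171 and 3035 with pseudocounts of 0.1 and 10, and 15349 with library weights. With no filter they were 1260 of 175737 transcripts. The number called higher, 0 in TPM, was 2 with a pseudocount of 10, 3 with the 7674 alone in the fit, 22, 6 and 6 after the 3 scalings, 482 with library weights, and 0 to 14 with each library left out. Higher calls among all 51052 tested were 29 with the pseudocount of 10 and 3599 with library weights. Chosen after seeing the data, leaving out KO replicates 1 and 2 together gave 2 lower. The disome libraries alone without KO replicate 1, 2 or 3 gave 0 lower each.

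Whether the replicate numbers pair WT with KO libraries was not settled. Deviations from the group means correlated at -0.23, -0.31 and -0.55 for the same number in WT and KO. For other numbers they correlated at -0.35 to 0.49. With 3 libraries a group, the deviations within a group are tied to each other, so these values cannot decide it. The replicate block by number gave 890 lower and 3 higher, and the replicate block by culture, as a random effect, 1079 lower and 3 higher. Among all 51052 tested, these blocks gave 3068 lower and 49 higher, and 3097 lower and 27 higher. Between disome and 80S, and between disome and Polysome1, 0 transcripts differed in every setting run except library weights, with 5 and 16. The difference in the 10-transcript share, 19.8 percentage points, turned to -0.0047 without KO replicate 1. Without each library it ranged from -0.0047 to 31.1, and for the 100 most abundant it was 20.7. ENST00000346199.2 kept its call in every setting with more than 1 KO disome library, except those with only disome libraries. The sums over genes and the share without mitochondrial transcripts were not run, since no transcript was named.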
